A study of Mus musculus with 8 samples.

Results

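The chaperonin TRiC and its partner prefoldin are described here through 10 of their subunit genes, 7 of TRiC (Tcp1, Cct2, Cct3, Cct4, Cct5, Cct7 and Cct8) and 3 of prefoldin (Pfdn1, Pfdn2 and Pfdn5). They are 10 of 27527 genes and unnamed features on the array, and 10 of the 22903 that were tested. The members were chosen by the gene name printed for each probe, with no threshold on their values, and 15 probes carried such a name. The group had been put forward with earlier results of these arrays known, so counts and medians over it are a description and support no test.

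The study hybridised 8 Agilent arrays in a single colour, 2 in each of 4 groups. The cells were haematopoietic stem cells (HSC) of donor origin, taken from recipient mice with a cell sorter. The groups were E47 knockout (KO) cells from secondary recipients, wild-type (WT) cells from secondary recipients, KO cells from primary recipients and WT cells from primary recipients. E47 is an E protein, a transcription factor encoded by one splice form of Tcf3. All groups share transplantation into a host, sorting, and amplification of their cDNA by a PCR that copies all transcripts. Such amplification serves small samples, and unequal copying can add to the spread between arrays. The knockout allele, the strain, age and conditioning of the hosts and the number of mice behind each array are not stated in the labels. Nor do the labels say that both arrays of a group come from separate cells, and p-values then measure array spread that may be technical alone. The 4 WT arrays lay on slide 1, the KO primary arrays on slide 2 and the KO secondary arrays on slide 3. Slide and genotype therefore cannot be told apart. Within KO cells, slide and kind of recipient cannot be told apart either, which also reaches the interaction and the recipient comparison over both genotypes.

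The arrays differed in brightness. Between 72.2% and 90.7% of spots were well above background on 6 arrays, but 35.4% on replicate 2 of KO primary and 41.9% on replicate 2 of WT primary, here named the dim arrays. The intensity at the 75th percentile was 19.6 and 36.5 on these dim arrays, against 320.3 to 848.4 on the others. HSC markers were present, with 11 to 12 of 12 well above background on the secondary arrays and 7 to 12 of 12 on the primary arrays. A level below is log2 of the processed intensity minus log2 of that array's 75th percentile, so that 0 is the level of a probe at the percentile. No member probe was saturated.

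TRiC, also called CCT, is a barrel-shaped chaperonin of the cytosol in which related but distinct subunits line a chamber that closes over a protein while it folds. Its best known clients are actin and tubulin, and it also folds proteins with WD40 repeats and regulators of the cell cycle. Prefoldin is a jellyfish-shaped complex that holds newly made actin and tubulin chains and passes them to TRiC. Blood stem cells are known to keep their rate of protein synthesis low and to be sensitive to faults in protein quality control.

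The values below rest on probes of 60 bases each, and the sequences of those behind the main contrasts are shown here. The 2 probes of Pfdn5 lie on chromosome 15 (mm8, plus strand) at chr15:102156771-102156830 and chr15:102156764-102156823 and share 53 bases, which makes them near repeats of one measurement. Capitals mark the 3 bases at which they differ, G8A, A24C and G38A, counted from the 5′ end of probe 1.
Pfdn5 probe 1: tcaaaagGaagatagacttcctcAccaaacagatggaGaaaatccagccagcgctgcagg
Pfdn5 probe 2: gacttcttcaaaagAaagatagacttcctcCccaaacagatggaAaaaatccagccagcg
The 2 probes of Cct2 read different stretches of its transcript, on the minus strand at chr10:116457191-116457250 and chr10:116465465-116465618. Probe 2 covers 94 more genomic bases than its own length, so it spans a splice junction.
Cct2 probe 1: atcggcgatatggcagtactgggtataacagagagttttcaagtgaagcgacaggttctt
Cct2 probe 2: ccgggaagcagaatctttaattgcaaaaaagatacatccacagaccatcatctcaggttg
Tcp1 and Cct8 gave the widest ranges among arrays from primary recipients beside Cct2. The main probe of Tcp1 lies at chr17:12766162-12766221 on the plus strand, and that of Cct8 at chr16:87374932-87375080 on the minus strand, where it spans 89 bases more than its length.
Tcp1 probe 1: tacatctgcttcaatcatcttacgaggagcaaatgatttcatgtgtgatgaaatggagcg
Cct8 probe 1: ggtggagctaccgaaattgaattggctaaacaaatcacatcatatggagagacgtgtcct

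Each gene is described by its brightest probe over the 8 arrays, whose levels are compared between arrays and not between genes. Tcp1 encodes the alpha subunit of TRiC, named after the mouse t complex in which the gene was found. Its level was 1.48 and 1.70 in KO and 1.62 and 2.16 in WT cells from secondary recipients, and -4.37 and -3.27 in KO and -2.85 and 7.19 in WT cells from primary recipients. The 4 secondary arrays lay within a narrow band, while the primary arrays held both the lowest values and the highest, which came from a dim array. Behind the highest level stood an intensity of 5324, against 45 on the other WT primary array and 17 and 2 on the KO primary arrays. Cct2, the beta subunit, had a similar course: 3.36 and 4.64 in KO and 3.24 and 2.81 in WT cells from secondary recipients, and -4.46 and -3.43 in KO and -2.84 and 7.24 in WT cells from primary recipients. Its KO values lay above its WT values in secondary recipients. In primary recipients they lay below, but the KO value of -3.43 was not well above background, and the lowest level that was so on that array, -1.20, exceeds the WT value of -2.84, so that order is not established.

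Cct3 encodes the gamma subunit, and its probe lies on chromosome 3 at chr3:88397639-88397698. It had levels of 2.88 and -0.97 in KO and 3.17 and 3.68 in WT cells from secondary recipients. In primary recipients it had -0.89 and -1.31 in KO and 2.92 and 9.44 in WT cells. All 4 WT arrays lay above all 4 KO arrays, although 2.92 and 2.88 were close. Cct4, the delta subunit, whose gene is altered in a rat strain with a sensory neuropathy, gave a signal well above background on every array. Its level was 1.38 and 1.99 in KO and 1.85 and 0.90 in WT cells from secondary recipients, and 3.32 and -1.11 in KO and 2.20 and 0.14 in WT cells from primary recipients. No pair of groups separated, so Cct4 was the TRiC subunit whose group means lay closest together, between 1.1 and 1.68.

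Cct5, the epsilon subunit, altered in a human sensory neuropathy, had levels of 3.64 and 2.40 in KO and 4.34 and 2.28 in WT cells from secondary recipients. In primary recipients it stood at -3.69 and -3.50 in KO and at 2.64 and -4.43 in WT cells. Replicate 1 of WT primary, at an intensity of 1995, was thus the sole primary array near the secondary level, and both dim arrays read 2. Cct7, the eta subunit, was well above background throughout, with 4.84 and 4.12 in KO and 4.05 and 3.74 in WT cells from secondary recipients and 2.83 and 3.21 in KO and 3.24 and 8.60 in WT cells from primary recipients. Apart from the dim WT array, its values stayed between 2.83 and 4.84. Cct8, the theta subunit, had 3.72 and 4.64 in KO and 3.89 and 4.09 in WT cells from secondary recipients, against 4.57 and -3.28 in KO and -5.20 and 10.51 in WT cells from primary recipients. Intensities of Cct8 ran between 8748 and 12574 on the secondary arrays. On the primary arrays they were 8469 and 2 in KO and 9 and 53146 in WT cells, so each genotype had one bright array and one not well above background.

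Among prefoldin subunits, Pfdn1 is a beta-class subunit whose loss in mice is known to disturb cilia and lymphocytes. Its level was 2.88 and 3.89 in KO and 3.91 and 3.92 in WT cells from secondary recipients. In primary recipients it was -6.88 and -3.19 in KO and -7.18 and -3.50 in WT cells, and it was not well above background on any of these 4 arrays. Its intensity was 4866 and 6384 in KO and 12720 and 11056 in WT cells from secondary recipients, and 3 and 2 in KO and 2 and 3 in WT cells from primary recipients. Pfdn1 was the sole member whose secondary and primary arrays did not overlap.

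Pfdn2, another beta-class subunit that also serves a prefoldin-like complex around URI, was well above background on all 8 arrays. It had levels of 2.89 and 0.73 in KO and 2.67 and 4.08 in WT cells from secondary recipients, and -0.16 and 1.20 in KO and 2.85 and 1.75 in WT cells from primary recipients. Its KO and WT arrays overlapped in secondary recipients and not in primary recipients. Pfdn5, an alpha-class subunit also known as MM-1 for its binding to the oncoprotein Myc, had 3.65 and 3.35 in KO and 3.92 and 4.28 in WT cells from secondary recipients. In primary recipients it had 2.18 and -2.40 in KO and 4.21 and 6.69 in WT cells. All 4 KO arrays lay below all 4 WT arrays, as they did for Cct3, which makes 2 of 10 members with this pattern, against 0.489% of all genes. The margin was small in secondary and wide in primary recipients.

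**Figure D1:**
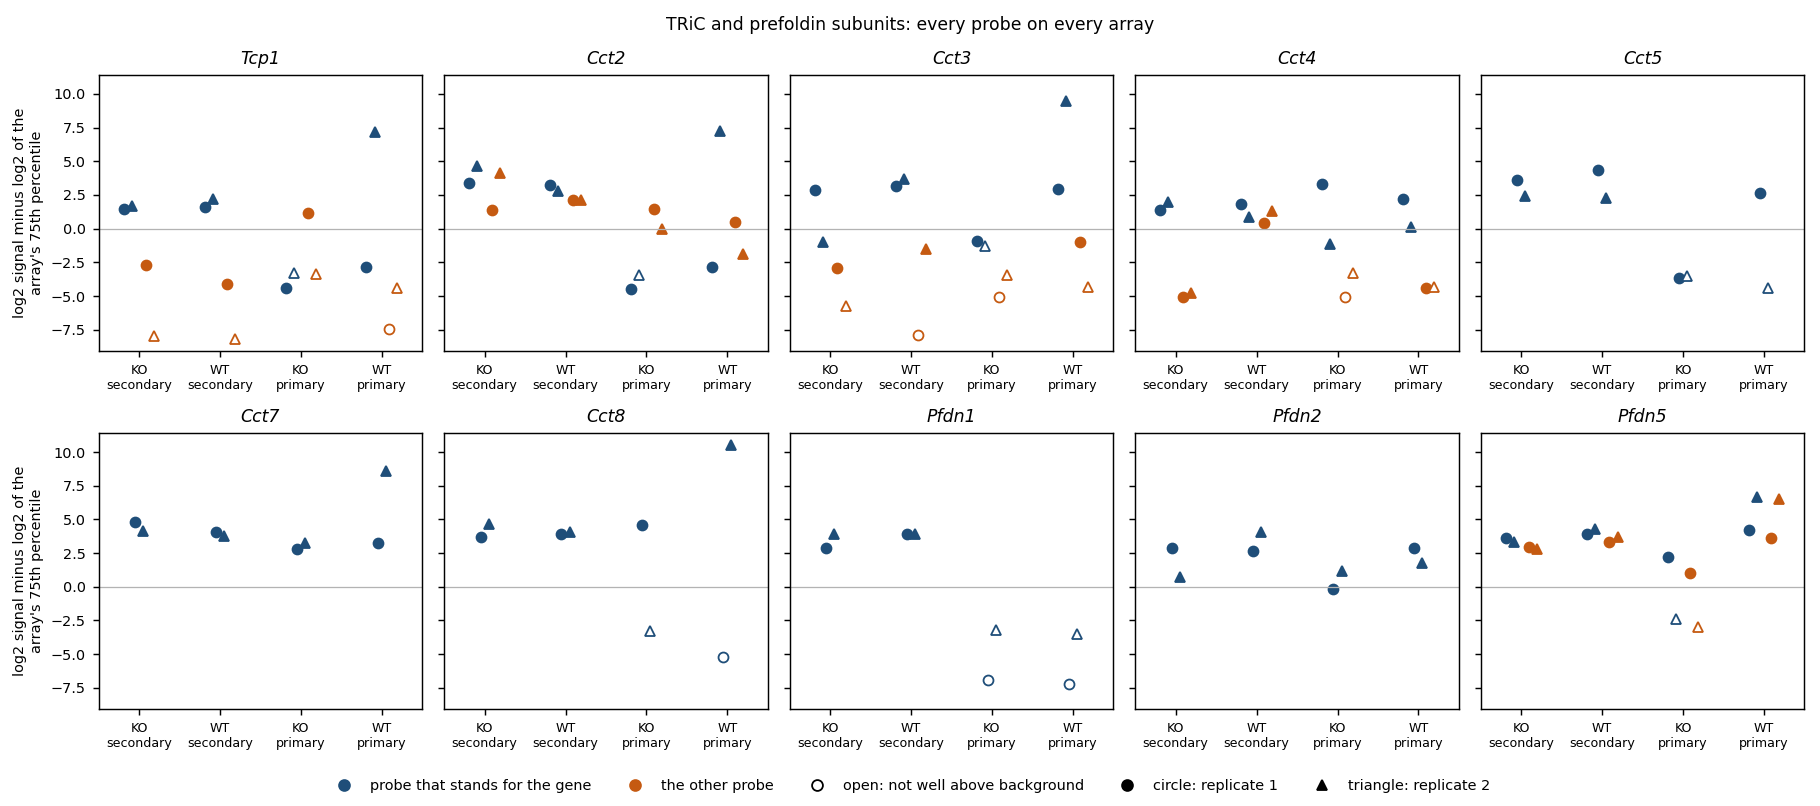
Level of every probe of the 10 genes on every array, as log2 intensity minus log2 of the array's 75th percentile (0, grey line), with the 4 groups along each x axis. Circles are replicate 1 and triangles replicate 2, blue is the probe that stands for the gene, orange is its other probe, and open marks were not well above background. For the blue marks, secondary arrays lie between -0.97 and 4.84 and primary arrays between -7.18 and 10.51.

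The arrays differed in where the members stood as a group. Their median level was 3.13 and 2.88 on the KO secondary arrays and 3.56 and 3.71 on the WT secondary arrays, where the median of all genes tested lay between -1.27 and -0.87. All 10 were well above background on each of the 4 secondary arrays, as were 93.7% to 99.2% of all genes tested. On the primary arrays the members' median was -0.53 and -2.79 in KO and 2.42 and 6.94 in WT cells, against -1.25 to -1.03 for all genes. Well above background were 9 and 3 members on the KO primary arrays and 8 and 8 on the WT primary arrays. Over all genes tested, those shares were 89.2% and 50.5% on the KO primary arrays and 90.4% and 58.7% on the WT primary arrays. Replicate 2 of WT primary thus had the highest median of the members and replicate 2 of KO primary the lowest, and these are the dim arrays.

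The members varied little among secondary arrays and widely among primary arrays. After taking out each array's median gene, the range over the 4 secondary arrays was 1.36 in the median member, from 0.74 for Cct7 to 4.65 for Cct3, against 2.33 in the median gene. The range over the 4 primary arrays was 8.08 in the median member, from 3.02 for Pfdn2 to 15.92 for Cct8, against 3.06 in the median gene. Many of the low primary values were not well above background (7 members on replicate 2 of KO primary, 1 on replicate 1, and 2 on each WT primary array), so these ranges are not exact. With such values raised to the lowest level well above background on their array, the median member's primary range was 7.22, against 3.12 in the median gene. For 9 of the 10 members the primary range was the wider one, Pfdn2 being the exception, as it was for 59.6% of all genes, and for 9 members also with the raised values. The gap between the replicates of WT primary alone was 6.15 in the median member and 1.62 in the median gene, and 1 member, Pfdn2 at 0.89, lay below the median gene. The gap of the median member was 1.12 for KO secondary, 0.47 for WT secondary and 1.23 for KO primary. The median gene had 1.19 for KO secondary, 0.82 for WT secondary and 1.71 for KO primary.

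**Figure D2:**
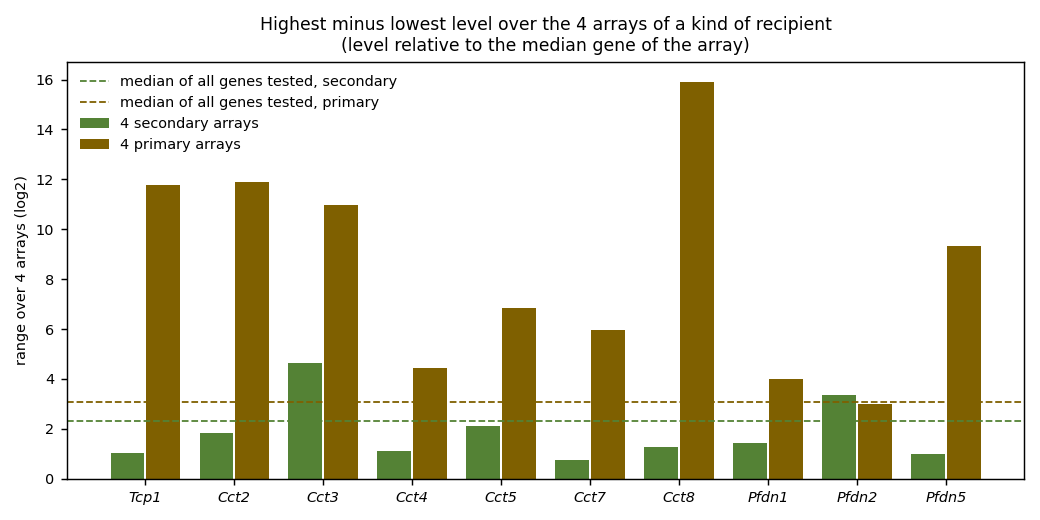
Highest minus lowest level of each member over the 4 secondary arrays (green bars) and over the 4 primary arrays (brown bars), in log2 units after subtracting each array's median gene. Dashed lines give the median over all genes tested, 2.33 for secondary and 3.06 for primary arrays. The brown bar is the taller one for each member except Pfdn2.

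Probes of one gene gave similar values for Pfdn5 and different ones elsewhere. The Pfdn5 probes printed above differed by 0.17 to 1.16 on the log2 scale over the 8 arrays. Probe 2 of Cct2 was well above background on all 8 arrays, with levels of 1.36 and 4.12 in KO and 2.16 and 2.12 in WT cells from secondary recipients. In primary recipients it had 1.44 and -0.04 in KO and 0.48 and -1.90 in WT cells, so it averaged 0.70 ± 1.04 in KO and -0.71 ± 1.68 in WT cells (SD, n = 2 each). Probe 1 averaged -3.94 ± 0.73 in KO and 2.20 ± 7.13 in WT cells (SD, n = 2 each) in the same groups. Probe 1 minus probe 2 of Cct2 ranged from -5.90 to 9.14 over the arrays. Neither probe established an order of KO and WT cells in primary recipients. Probe 1 was not well above background on replicate 2 of KO primary, and the arrays of probe 2 overlapped. The second probes of Tcp1, Cct3 and Cct4 were designed on cDNA clone records and were dimmer in the mean. They were well above background on 3, 3 and 5 arrays, and probe 1 minus probe 2 ran from -5.54 to 11.58, from 2.13 to 13.80 and from -0.43 to 8.41 in these genes. Cct4's second probe separated the genotypes in secondary recipients, with -5.08 and -4.80 in KO and 0.42 and 1.32 in WT cells, whereas its main probe did not.

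KO and WT cells from secondary recipients were compared to ask what differs without E47 after a second transplantation. No member passed the test, which with 2 arrays a group does not show that levels were alike. Relative to the median gene, which itself stood 0.46 higher in KO, the log2 change of the members ran from -2.93 to 0.52 with a median of -0.75, and 8 lay below the median gene and 2 above. Lowest was Cct3 at -2.93 (SE 2.16, limma adjusted p = 0.984), followed by Pfdn2 at -2.02 (SE 1.21, limma adjusted p = 0.984). Cct2 stood at 0.52 (SE 2.80) and Cct7 at 0.13 (SE 1.67). By limma with Benjamini-Hochberg adjustment, 0% of all genes passed, and 0 of 10 members had an unadjusted p under 0.05 where 5.38% of all genes did. KO arrays lay above both WT arrays for 2 members, Cct2 and Cct7, a pattern shown by 34.1% of all genes. They lay below for 3 members, Cct3, Pfdn1 and Pfdn5, a pattern of 12.3% of all genes.

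In primary recipients the same comparison asks about the state after a first transplantation. Tcp1, Cct2, Cct3, Cct7, Pfdn2 and Pfdn5 had lower levels on both KO arrays than on both WT arrays, which is 6 of 10 members where 9.12% of all genes did so, and 0 members were higher on both KO arrays (16.8% of all genes). On replicate 2 of KO primary, 7 members were not well above background. With such values raised to the lowest level well above background on their array, a step added after the data were seen, the order held for 4 members (Cct3, Cct7, Pfdn2 and Pfdn5, against 6.55% of all genes) and was not established for Tcp1 and Cct2. The median log2 change was -3.08 relative to the median gene (which stood 0.28 higher in KO), with 9 members below it and 1 above. Cct3 stood at -7.57 (SE 2.16), Cct2 at -6.43 (SE 2.80), Tcp1 at -6.28 (SE 2.77) and Pfdn5 at -5.84 (SE 1.62), each with limma adjusted p = 0.995. Cct7 stood at -3.18 (SE 1.67), Cct5 at -2.98 (SE 2.13), Cct8 at -2.30 (SE 4.64), Pfdn2 at -2.07 (SE 1.21), Cct4 at -0.35 (SE 1.58) and Pfdn1 at 0.02 (SE 1.64). None passed, as 0% of all genes did, and Cct3 and Pfdn5 were the 2 of 10 with an unadjusted p under 0.05 (3.96% of all genes). The median rested on single arrays, since it ran from -6.33 to -1.64 when each array was left out in turn. Leaving out replicate 1 of WT primary gave -6.33. In that fit the lone WT primary array was the dim one and was assumed to vary like the other groups. Cct2 then stood at -11.33, Tcp1 at -11.15 and Cct3 at -10.68. They passed in that fit, but with a lone array in a group this is no support. These genes were not well above background on replicate 2 of KO primary, and probe 2 of Cct2 averaged higher in KO than in WT cells from primary recipients.

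**Figure D3:**
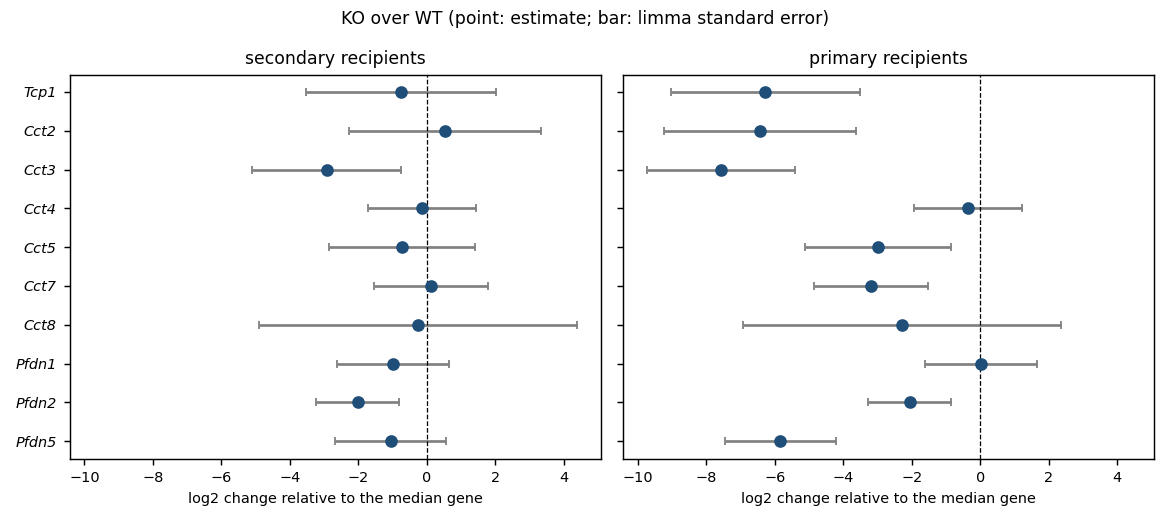
Log2 change of KO over WT for the 10 members in secondary recipients (left) and primary recipients (right), relative to the median gene, with bars of 1 limma standard error from a fit of 4 groups of 2 arrays. The left panel lies between -2.93 and 0.52, and the right one reaches -7.57 for Cct3.

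Over both kinds of recipient all 10 members lay below the median gene in KO, with a median log2 change of -1.91. The median ran from -2.78 to -0.85 with each array left out in turn, and was -0.82 without the dim arrays, where 8 members lay below and 2 above. Cct3 stood at -5.21 (SE 1.66, limma adjusted p = 0.851), Tcp1 at -3.48 (SE 2.08), Pfdn5 at -3.41 (SE 1.37), Cct2 at -2.92 (SE 2.22) and Pfdn2 at -2.01 (SE 0.80). Before the median gene's shift of 0.33 was taken out, Cct4 stood at 0.12 and the other 9 members below 0. None passed (0% of all genes), and Cct3 alone had an unadjusted p under 0.05 (1 of 10, against 4.68% of all genes). The interaction asks whether the change of KO against WT differs between secondary and primary recipients, and no member passed it (0% of all genes, and 0 of 10 members against 3.74% of all genes at an unadjusted p under 0.05). Its values had a median of 2.68, with 8 members above the median gene and 2 below, and were largest for Cct2 at 6.86 (SE 3.95) and Tcp1 at 5.42 (SE 3.92), each with limma adjusted p = 1.

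Cells from secondary and primary recipients were compared to ask how the transcripts stand after a second transplantation. All 10 members lay above the median gene over both genotypes, with a median log2 change of 2.54. The median gene itself stood 0.73 lower in secondary recipients, and before that shift was taken out Cct3 (-0.35) and Cct7 (-0.28) lay below 0. Pfdn1 had the largest difference of the 10 members, at least 132-fold higher in secondary recipients, a lower bound because all 4 primary arrays were not well above background. Its fitted log2 change was 9.57 (SE 1.1, limma adjusted p = 0.0578), which did not pass. Its unadjusted p ranked 10 among all genes, and 36 genes shared this adjusted p, with 0 lower. Pfdn1 met the filter for entering the fit only through secondary arrays, where it was high, so this rank is a description and no support. Cct5 followed at 6.14 (SE 1.47, limma adjusted p = 0.208) and Cct2 at 5.12 (SE 2.22, limma adjusted p = 0.30). Tcp1 stood at 3.30 (SE 2.08), Cct8 at 3.17 (SE 3.11), Pfdn2 at 1.92 (SE 0.80), Pfdn5 at 1.86 (SE 1.37) and Cct4 at 1.12 (SE 1.05). In this comparison 0% of all genes passed, and 2 of 10 members, Pfdn1 and Cct5, had an unadjusted p under 0.05, where 19.3% of all genes did. Pfdn1 was the 1 member whose secondary arrays all lay above its primary arrays, against 3.16% of all genes. Under 7 of 18 other settings of the fit Pfdn1 passed, with a change of 6.64 to 11.18 and an adjusted p of 0.000747 to 0.258 over all of them. Without the dim arrays it stood at 11.18, with 1 array left in each primary group. The primary values of Pfdn1 were not well above background in any setting, so these passes too are a description and no support.

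Within KO cells all 10 members lay above the median gene in secondary recipients, with a median of 4.10. Pfdn1 was at least 89.3-fold higher (limma adjusted p = 0.695), Cct2 stood at 8.47 (SE 2.80), Cct5 at 7.14 (SE 2.13), Tcp1 at 5.94 (SE 2.77) and Pfdn5 at 4.13 (SE 1.62), the last 4 with limma adjusted p = 0.715. Secondary arrays lay above primary arrays for 6 members (Tcp1, Cct2, Cct5, Cct7, Pfdn1 and Pfdn5), where 12.7% of all genes did so. No member passed (0% of all genes), and 3 had an unadjusted p under 0.05 (6.04% of all genes). The KO median was 2.15 without the dim KO array and 6.05 without the other KO primary array. The KO secondary and KO primary arrays lay on different slides, so slide and recipient cannot be told apart here.

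Within WT cells 7 members lay above the median gene and 3 below, with a median of 1.51. Pfdn1 was at least 195-fold higher (limma adjusted p = 0.323) and Cct5 stood at 5.20 (SE 2.13), while Cct3 stood at -1.76 (SE 2.16), Cct7 at -1.02 (SE 1.67) and Pfdn5 at -0.35 (SE 1.62). Pfdn1 was the 1 member without overlap (15.3% of all genes) and the 1 with an unadjusted p under 0.05 (12% of all genes), and again 0% of all genes passed. Without replicate 1 of WT primary, the WT median was -2.44. The KO and WT comparisons were not shown to differ, since 0 members passed the interaction.

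**Figure D4:**
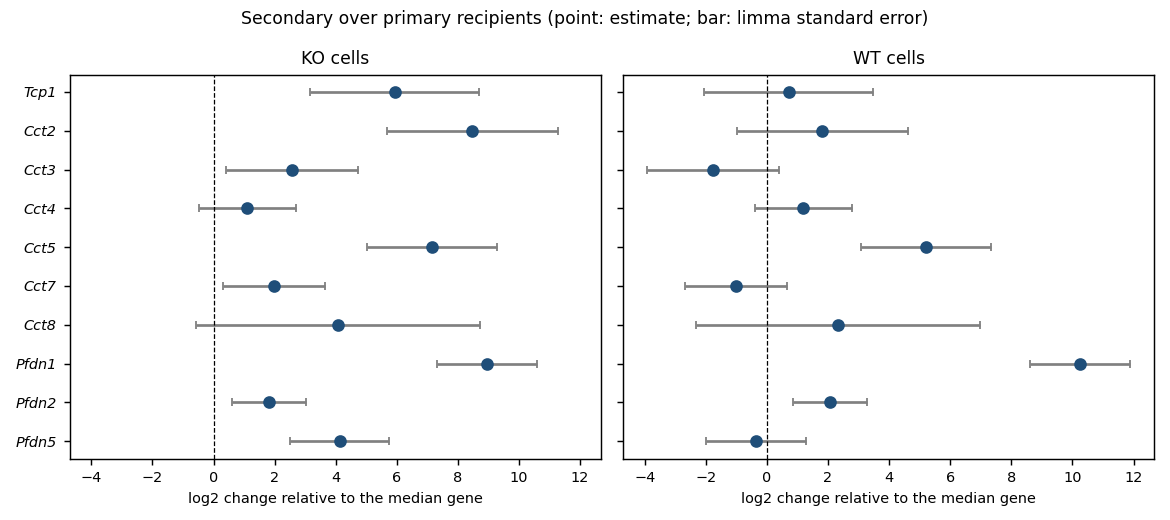
Log2 change of secondary over primary recipients for the 10 members in KO cells (left) and WT cells (right), relative to the median gene, with bars of 1 limma standard error. All KO points lie right of 0, and in WT cells Cct3, Cct7 and Pfdn5 lie left of it. Pfdn1 is drawn at its fitted value, which rests on primary arrays not well above background.

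The summed level of granulocyte and monocyte markers moved with the kind of recipient. The summed intensity of 12 granulocyte and monocyte markers, in multiples of the array's 75th percentile, was 8.06 to 25.9 on secondary arrays and 231 to 15854 on primary arrays. Of these 12, 9 to 11 were well above background on secondary and 11 to 12 on primary arrays. S100a8, a neutrophil protein, was not well above background on 3 of the 4 secondary arrays. The sum of 12 HSC markers was 59.1 to 88.5 on secondary and 12.4 to 1849 on primary arrays, and that of 6 T and NK cell markers was 3.36 to 17.3 on secondary and 2.40 to 432 on primary arrays. For 6 B cell markers it was 6.59 to 9.95 on secondary and 9.86 to 13.8 on primary arrays, and for 5 tested erythroid markers 1.55 to 3.08 on secondary and 2.27 to 7.38 on primary arrays. For 5 megakaryocyte markers it was 6.21 to 21.5 on secondary and 6.42 to 9.51 on primary arrays, and for 4 tested mast cell and basophil markers 0.79 to 1.48 on secondary and 0.62 to 8.73 on primary arrays. The sum of granulocyte and monocyte markers was higher on every primary array than on any secondary array, although Elane, Cd14 and Csf1r overlapped, and the sums of the other 6 lists overlapped too. The part of these cells, and of array brightness, in the members' differences was not tested. In bulk samples, fewer cells of a type and less RNA per cell cannot be told apart.

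Other subunits varied in pattern. The other 5 tested were Cct6a and Cct6b, which encode forms of the zeta subunit of TRiC, and the prefoldin genes Vbp1, Pfdn4 and Pfdn6. Over both genotypes 4 of 5 lay above the median gene in secondary recipients, with a median of 3.03, and 0 passed. Cct6b stood at 3.03 (SE 0.78, limma adjusted p = 0.249) and Cct6a at 2.70 (SE 0.93, limma adjusted p = 0.281). Vbp1, the prefoldin subunit that binds the von Hippel-Lindau protein, was, like Pfdn1, not well above background on any primary array, with -6.56 and -3.49 in KO and -5.93 and -4.19 in WT cells. In secondary recipients it had -2.12 and -8.08 in KO and 0.31 and 0.28 in WT cells, so one KO array had no signal well above background. Within WT cells Vbp1 was at least 15.8-fold and Pfdn4 at least 10.02-fold higher in secondary recipients (limma adjusted p = 0.411 and 0.439). Pfdn6 was well above background on all 8 arrays, with 2.13 and 1.60 in KO and 4.54 and 4.60 in WT cells from secondary recipients against 2.24 and 10.15 in KO and 3.43 and 4.57 in WT cells from primary recipients. It stood at -3.80 (SE 2.26) in KO and at 1.57 (SE 2.26) in WT cells for secondary against primary recipients, and the value of 10.15 came from a dim array. In the comparison of KO and WT cells, 4 of these 5 lay below the median gene in secondary recipients (median -3.16) and 3 of 5 in primary recipients (median -0.25). Vbp1, the lowest in secondary recipients, stood at -5.85 (SE 2.0, limma adjusted p = 0.902).

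Clients and helper chaperones were counted in the same way, and 0 of them passed in any comparison. Actins and tubulins, the main clients of TRiC, had 11 of 14 genes below the median gene in KO cells from primary recipients (median -1.75) and 12 of 14 in secondary recipients (median -0.50). Tubb6, a beta tubulin, stood at -3.19 (SE 1.09, limma adjusted p = 0.995) in primary recipients. Between secondary and primary recipients over both genotypes, 6 of these 14 lay above the median gene and 8 below (median -0.09). Of 9 other clients, such as the anaphase activator Cdc20 and G protein beta subunits, 5 lay above in KO cells from primary recipients (median 0.57), with Gnb2 at 3.87 (SE 1.11, limma adjusted p = 0.995), and 3 lay above in secondary recipients (median -0.38). Between secondary and primary recipients 3 of the 9 lay above (median -0.73).

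TRiC cofactors and prefoldin-like proteins had 6 of 10 above the median gene in KO cells from primary recipients (median 0.37) and 1 of 10 in secondary recipients (median -1.72), and 8 of 10 lay above in secondary against primary recipients (median 1.53). Among these Uxt, a prefoldin-like protein, stood at 4.76 (SE 1.09, limma adjusted p = 0.208) in secondary against primary recipients. Tubulin folding cofactors, which take up tubulin after TRiC, had 0 of 7 above in KO cells from secondary recipients (median -0.73) and 4 of 7 in primary recipients (median 0.09), and 7 of 7 in secondary against primary recipients (median 2.19). The Hsp70 and Hsp90 system had 17 of 19 genes tested, with Hspa1b and Hsph1 left out by the filter. It had 5 of 17 above in KO cells from secondary recipients (median -0.48), 10 of 17 in primary recipients (median 0.24) and 14 of 17 in secondary against primary recipients (median 1.01). St13, an Hsp70 cochaperone, stood at 7.24 (SE 1.53, limma adjusted p = 0.995) in KO against WT cells from primary recipients, opposite in sign to 9 of the 10 members. Cdc37, which brings kinases to Hsp90, stood at 3.80 (SE 0.68, limma adjusted p = 0.137) in secondary against primary recipients. Of the 4 mitochondrial chaperone genes, Hspe1, the lid of the mitochondrial chaperonin, stood at 5.32 (SE 2.02, limma adjusted p = 0.995) in KO against WT cells from primary recipients, where it was at least 10.1-fold higher with 1 of 2 KO arrays well above background. The 4 had 2 above and 2 below in that comparison (median -0.84), 0 above in secondary recipients (median -0.43), and 3 above in secondary against primary recipients (median 0.45).

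Members differed in how closely they followed one another. Tcp1 and Cct2 correlated at r = 0.97 over the 8 arrays and at 0.98 over the 6 that were not dim. At the other end Cct4 correlated with Cct7 at -0.31 over the 8 arrays and at -0.72 over those 6. Some other pairs moved more without the dim arrays. Cct3 and Cct7 fell from 0.85 to 0.33 and Cct8 and Pfdn5 from 0.62 to -0.34, while Cct7 and Pfdn1 rose from 0.10 to 0.89. Over the 8 arrays Cct4 followed the mean of all members at 0.04, whereas Cct2 followed that mean at 0.96 and Tcp1 at 0.93. These values describe arrays that share depth and group structure, and the members are part of their own mean. Of 8187 other named genes well above background on all arrays, those most like the members' mean were Eif4a1, an RNA helicase of translation initiation (r = 0.962, rho = 0.905), and Uqcrc2, a core subunit of respiratory complex III (r = 0.961, rho = 0.929). Also among the 5 most like it were Spcs2 of the signal peptidase (r = 0.953, rho = 0.762) and Tmem11 of the inner mitochondrial membrane (r = 0.945, rho = 0.952). The mean of the members relative to the median gene was 3.94 and 3.88 on KO secondary arrays, 4.54 and 4.42 on WT secondary arrays, 0.28 and -0.68 on KO primary arrays, and 1.03 and 5.61 on WT primary arrays. Eif4a1 stood at 4.73 and 5.18 on KO secondary, 5.59 and 5.89 on WT secondary, 3.14 and 3.06 on KO primary, and 3.17 and 5.80 on WT primary arrays, a smaller swing with the dim WT array again above the other primary arrays.

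Promoters were searched because E47 binds E boxes and because heat shock factors drive many chaperone genes. In the RefSeq promoter table of GRCm38.p6, which holds 250 bases before to 50 bases after the start of 32851 promoters, 8 of the 10 members were found. On either strand the E box CANNTG was present in 4 of the 8 (Cct2, Cct5, Cct7 and Pfdn2), against 72.3% of all promoters. The form CAGGTG was present in 1 (Pfdn2, against 20.2% of all promoters) and CAGCTG in 0 (16.3%), both being cases of CANNTG. The letters GAANNTTC, a pair of heat shock element units, or the reverse arrangement TTCNNGAA, were present in 2 (Cct2 and Cct5), against 15.1% of all promoters. A match says that these letters lie in the window, and no match that they do not.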

How the data were processed

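RNA of donor-derived HSC was amplified by a global PCR and labelled with Cy3, per the labels' protocols. The deposited scanner files hold spot intensities made with Agilent Feature Extraction 10.5.1.1 on array design 014868, per the file headers: a background-subtracted processed intensity, a mean signal and quality marks. The deposited series matrix holds a ratio of each intensity to its array's median, found by setting the 2 sources side by side, and served as an alternative. Probe positions are in mm8, per the file headers, and no genome or annotation of that build was used.

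Outlier spots (67 to 116 of 43379 per array) and controls were left out, spots of a probe were averaged, and 41048 of 41174 probes kept a value on all arrays. All 15 member probes were kept. The level was log2 of the processed intensity minus log2 of the array's 75th percentile. Genes entered the fit when a probe exceeded background clearly on the 2 arrays of any group, and the brightest probe stood for a gene. Groups were compared with limma 3.58.1 (lmFit and eBayes, R 4.3.3) in a fit of 4 group means (4 residual degrees of freedom), or an additive fit of genotype and recipient (5) for comparisons that pool all 8 arrays. Benjamini-Hochberg adjustment ran over all 22903 genes and unnamed probes, with a threshold of 0.05. Changes are printed after subtracting that of the median gene, and p-values test the change before that shift is taken out. Where no array of the dimmer group was well above background, "at least" sets the brighter mean against the lowest signal well above background on each dim array, or the probe's own if higher.

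Members and lists were chosen with earlier results of these data known. Named genes were all members, the 2 of lowest p in each list and comparison, other subunits, and the 5 genes most like the members, of which 1 is not reported here. A few subunits and S100a8 outside these were named after their values were seen. The number of arrays limits the precision. Differences between replicates correlated between groups at -0.026 to 0.149, so shared replicate numbers showed no strong pairing, though this cannot exclude it.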

Additional observations from a re-analysis of the deposited data

Results flagged for a closer look

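In a set of 4 arrays, an array was singled out if its gap to the nearest other exceeded, as a share of the whole range, Dixon's 95% critical value, which chance does in about 5% of sets. Of 40 sets examined over the members, 10 were so marked, though the sets share arrays. The share of marked sets over all genes was not counted, so this number is not shown to be particular to the members. Replicate 2 of WT primary, a dim array, stood high for Tcp1 (7.187, the other primary arrays between -4.37 and -2.85), Cct2 (7.241, the others between -4.46 and -2.84) and Cct7 (8.596, the others between 2.83 and 3.24). It also stood high among the WT arrays for Cct7 (8.596), Cct3 (9.443, the others between 2.92 and 3.68) and Pfdn5 (6.692, the others between 3.92 and 4.28). Replicate 1 of WT primary was alone among primary arrays in a high level of Cct5 (2.639, the others between -4.43 and -3.50). Cct5 was not well above background on either dim array, nor were Tcp1 and Cct2 on replicate 2 of KO primary. The lowest level that was so was -1.20 on that array and -2.18 on replicate 2 of WT primary. Both exceed the values read there, so the marks of Tcp1, Cct2 and Cct5 are not established.

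Among KO arrays, Cct3 stood high on replicate 1 of KO secondary (2.878, the others between -1.31 and -0.89) and Cct8 low on the dim replicate 2 of KO primary (-3.283, the others between 3.72 and 4.64). Pfdn1 was lower on replicate 1 of KO secondary (2.875) than on the other secondary arrays (3.89 to 3.92).

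Cct2 and Cct7 lay higher on both KO arrays than on both WT arrays in secondary recipients and had lower values on both in primary recipients. For Cct2 that primary order is not established, since replicate 2 of KO primary was not well above background. Probe 2 of Cct2, well above background on all 8 arrays, overlapped in both kinds of recipient and averaged 0.70 in KO and -0.71 in WT cells from primary recipients. The difference between these changes, secondary minus primary, was 6.855 for Cct2 and 3.209 for Cct7 on the log2 scale relative to the median gene. Limma's interaction test gave an adjusted p = 1 for both.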

How the results depend on the processing

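Each comparison was refitted under 19 alternatives. For secondary against primary recipients over both genotypes, where 0 genes passed, the count of genes was 194 with normexp and quantile normalization, 212 with quantile normalization, 306 with scaling to the median of probes well above background on all arrays, 30 with the mean of all probes of a gene, 103 with every probe on its own, 44 with slide as a random block and 76 without the 2 dim arrays. The same comparison in WT cells gave 2 with normexp and quantile normalization. Pfdn1 passed in each of these fits, which is a description and no support, since it entered them only through secondary arrays. The cause of these changes was not tested. In the fit with slide as a random block, the estimated correlation of arrays on a slide was slightly negative (-0.095). Each group lay on a single slide, so that fit is no correction for slide. With each array left out in turn, the count for KO against WT cells in primary recipients was 0 to 540, the highest without replicate 1 of WT primary, and 0 in the other comparisons. The members' median log2 change ran from -6.327 to -1.636 for KO against WT in primary and from -0.83 to -0.57 in secondary recipients, and from 1.133 to 5.81 for the interaction. For secondary against primary recipients it ran from 2.15 to 6.047 in KO cells, from -2.44 to 1.658 in WT cells, the lowest without replicate 1 of WT primary, and from 1.74 to 3.78 over both. Without the 2 dim arrays the KO median was 2.15. Of 1288 values of single members under the alternatives, 1203 kept their sign and 85 turned. Under the filter for probes well above background on all arrays, 4 members were tested. For KO against WT over both kinds of recipient the members' median ran from -2.78 to -0.85 with each array left out in turn. The members' median had an SD between replicates of 1.86, and of 0.0726 without the 2 dim arrays. Each primary group then kept 1 array, so 0.0726 covers the secondary groups alone and leaves the spread between primary replicates unmeasured.

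With the replicate number as a block, 0 genes passed in every comparison and the members' median for KO against WT was -3.08 in primary and -0.75 in secondary recipients, as without the block. The labels do not say whether equal numbers share a sample, and this fit changed no call.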

Other observations

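Several subunit genes have a neighbour whose transcription starts within 1000 bases on the other strand in GRCm38.p6, and the paired levels are given side by side. Mrpl18, a mitochondrial ribosomal protein gene starting 238 bases from Tcp1, had levels of 1.54 and -2.31 in KO and 1.15 and 1.35 in WT cells from secondary recipients, and 0.43 and -3.25 in KO and -4.12 and 9.44 in WT cells from primary recipients. Like Tcp1, it was highest on the dim array of WT primary. Tsacc, starting 136 bases from Cct3, lay between -0.55 and 0.99 in secondary and between -0.08 and 1.17 in primary recipients, without the high WT array of Cct3. Pradc1, 203 bases from Cct7, ran from -4.56 to -0.47 in secondary and from -3.86 to -2.20 in primary recipients. Over all arrays it was not highest where Cct7 was, on the dim WT primary array. Its level of -2.20 there lay below the lowest level well above background on that array, -2.18. The order of Pradc1 among primary arrays is therefore not established. Nit1, 30 bases from Pfdn2, was 0.36 and -3.67 in KO and 1.44 and 0.59 in WT cells from secondary recipients, and 0.32 and -2.49 in KO and -2.26 and -4.20 in WT cells from primary recipients. The partner of Cct5, Atpsckmt at 270 bases, ran from -2.65 to 1.27 in secondary and from -2.34 to -0.68 in primary recipients, without the drop of Cct5.

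Probes on the array that stand on other records of these genes, a genomic one of Cct4 and a cDNA clone of Cct3, carry no member name and were well above background on 2 and 3 arrays.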
